A study of Mus musculus with 14 samples.

Results

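The genes described are 52 genes of chromosome segregation and mitosis, listed by their known roles. A probeset with the gene's platform symbol was found for 47 of them, and 1 probeset was used for each gene, the one with the highest mean over the 14 arrays, out of 12393 genes measured in the same way. No probeset carried the symbols Ccnb1, Kntc1, Spc24, Cdca8 or Espl1, so these 5 genes were not measured. Total RNA of B16-F10 cells, a line of mouse melanoma cells grown in RPMI medium with fetal bovine serum, had been hybridised to Affymetrix oligonucleotide arrays. The 5 control arrays came from untreated cells. The 3 heat shock arrays came from cells kept for 1 h at 42.5 °C and allowed to recover for 30 min. The 3 Lipofectamine arrays came from cells kept for 3 h with Lipofectamine 2000, a cationic liposome used to carry DNA into cells, in Opti-MEM and then for 30 min in RPMI with serum, without plasmid. The 3 benzyl alcohol arrays came from cells kept for 1 h in 40 mM benzyl alcohol, a compound that makes membranes more fluid. The recovery after benzyl alcohol is given as 3 h in the sample protocol and as 30 min in the description of the series. No group had the Opti-MEM change alone, so the liposomes and the medium cannot be told apart.

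Mitosis begins when CDK1, bound to a cyclin, is freed of an inhibitory phosphate: WEE1 adds it and the CDC25 phosphatases remove it. Kinetochores, built on the centromere, then hold the chromosomes on spindle microtubules, and the spindle checkpoint blocks CDC20 until every kinetochore is attached. After that the cohesin rings that join sister chromatids are cut, motor proteins pull the spindle apart and the cell divides. Many of these genes are transcribed mainly in the later part of the cell cycle, so that their RNA in a culture follows both how many cells are in that part and how much RNA each cell holds. These cannot be told apart in RNA from whole cultures.

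The control arrays were not alike in these genes, and each comparison with the control was therefore also made with either part of them. Relative to each gene's mean over the 5 control arrays, the median over the 47 genes was -0.35 in control array 1, -0.29 in control array 3, and 0.096, 0.27 and 0.28 in control arrays 2, 4 and 5 on the log2 scale. The same medians over all 12393 genes lay between -0.039 and 0.035. Arrays 1 and 3 both lay below arrays 2, 4 and 5 without overlap for 36 of the 47 genes, or 76.6%. Of all 22626 probesets, 21% did so. This division of the controls is part of how the genes are described here, came from earlier results of the same arrays and was not tested. It puts like arrays together, which lowers the spread within the controls. For Plk1 with heat shock, the SE was 0.25 against all controls, 0.14 against arrays 1 and 3 and 0.13 against arrays 2, 4 and 5. Adjusted p and calls against either part therefore serve as description and are not valid tests. No label sets these arrays apart, and their part in the comparisons of mitosis genes with the control is given by leaving them out. The array medians over all probesets lay between 7.027 and 7.116, and arrays of the same group correlated at 0.9793 to 0.9971. Of the pigment cell markers, 11 were measured, with a median of 11.2, and the medians of the 6 epithelial, 6 macrophage and 6 fibroblast markers were 5.95, 6.21 and 6.15. The lists overlapped: the lowest pigment cell marker was at 6.69, and the highest epithelial, macrophage and fibroblast markers were at 7.24, 8.13 and 7.33.

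**Figure D1:**
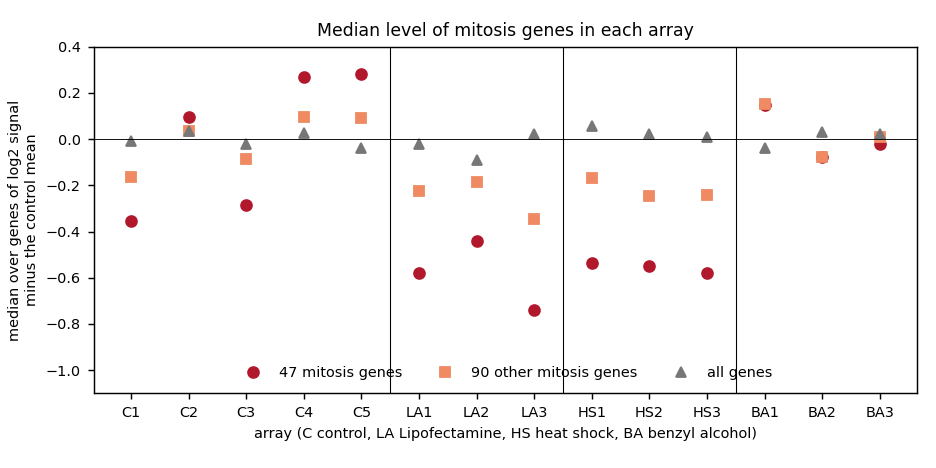
Each point is 1 array, and its height is the median over genes of the log2 signal minus the gene's mean over the 5 control arrays, for the 47 mitosis genes (circles), 90 other mitosis genes (squares) and all genes (triangles). Control arrays 1 and 3 sit at -0.35 and -0.29 for the 47 genes, between the other controls and the Lipofectamine and heat shock arrays, and the triangles stay between -0.090 and 0.056.

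The promoters of many mitosis genes share short elements. The cell cycle gene homology region (CHR), TTTGAA or TTTAAA, is bound by the complexes that keep these genes silent outside the later cell cycle, CCAAT is bound by NF-Y, and E2F factors bind TTTGGCGC, TTTCCCGC, TTTGCCGC or TTTCGCGC. In the RefSeq promoters of build GRCm38.p6, from 250 bases before to 50 bases after the start of the gene, 37 of the 47 measured genes had an entry, with 40 promoters. On either strand, a CHR was found in 75% of them and in 27.6% of the 32851 promoters in the table, CCAAT in 75% against 37.4%, an E2F word in 10% against 2.26%, and both a CHR and CCAAT in 62.5% against 10.7%. Neighbouring words can share an end letter, and a match describes the window, not a site in use. The 120 bases before the start are shown for the 6 genes that had the smallest p against the control among those in the table, 4 for each of Lipofectamine and heat shock with Kif2c and Racgap1 in both. They are written along the gene's strand, and capitals mark CHR and CCAAT words.
Plk1 (chr7:122159315-122159434, plus strand): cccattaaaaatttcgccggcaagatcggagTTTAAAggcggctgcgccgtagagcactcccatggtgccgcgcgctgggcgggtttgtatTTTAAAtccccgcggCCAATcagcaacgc
Cdc20 (chr4:118437344-118437463, minus strand): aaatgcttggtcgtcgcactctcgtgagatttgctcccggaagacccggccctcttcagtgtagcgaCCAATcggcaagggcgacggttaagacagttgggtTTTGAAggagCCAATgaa
Zwint (chr10:72654726-72654845, plus strand): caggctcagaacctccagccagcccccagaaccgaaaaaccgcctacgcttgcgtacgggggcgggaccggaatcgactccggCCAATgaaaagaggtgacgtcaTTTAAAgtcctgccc
Kif2c (chr4:117178773-117178892, minus strand): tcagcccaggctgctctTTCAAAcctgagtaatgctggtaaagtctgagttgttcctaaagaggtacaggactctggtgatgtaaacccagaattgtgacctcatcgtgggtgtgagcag
Racgap1 (chr15:99651657-99651776, minus strand): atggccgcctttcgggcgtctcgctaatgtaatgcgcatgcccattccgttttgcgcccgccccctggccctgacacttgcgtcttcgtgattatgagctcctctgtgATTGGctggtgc
Ndc80 (chr17:71526858-71526977, minus strand): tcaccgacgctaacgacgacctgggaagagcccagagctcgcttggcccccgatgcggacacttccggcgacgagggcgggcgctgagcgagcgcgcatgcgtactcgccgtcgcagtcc
In Cdc20 a CHR starts 18 bases before the start of the gene, between CCAAT words at 53 and 8 bases before it. Plk1 has 2 CHR words, 89 and 29 bases before the start, and a CCAAT 14 bases before it. Zwint, the gene that rose with Lipofectamine, has a CCAAT 37 bases and a CHR 15 bases before the start. Of the 21 promoters of genes that fell with Lipofectamine or heat shock, 12 hold both kinds of word. This is 57.1%, beside 62.5% of the 40 promoters of all measured genes. In Kif2c the CHR words lie farther off, 103 and 234 bases before the start, and no CCAAT was found. Racgap1 holds a CCAAT on the other strand 12 bases before the start and a CHR from base 6 of the gene, and Ndc80 has its CHR words only within the gene, from bases 23 and 30.

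Lipofectamine lowered 17 of the 47 genes and raised 1, Zwint, and the other 29 did not pass the test. The median log2 difference over the 47 genes was -0.58, beside -0.024 over all genes, and 46 of the 47 differences were below 0. Of all probesets tested, 3.1% were called lower and 1.78% higher. Heat shock lowered 18 genes and raised none, with a median of -0.50 beside 0.041 over all genes and 45 differences below 0. Of all probesets, 4.91% were called lower and 1.05% higher with heat shock. At an unadjusted p under 0.05 there were 37 of the 47 genes in each of these comparisons, beside 18.8% of all probesets with Lipofectamine and 22.8% with heat shock. Benzyl alcohol gave no call: 3 of the 47 genes had an unadjusted p under 0.05, beside 13.4% of all probesets, the median was -0.034 and 26 differences were below 0. The shares of all probesets called with benzyl alcohol were 0.698% lower and 0.689% higher. Every p is limma's, two-sided and adjusted over 22626 probesets by Benjamini-Hochberg, and a gene was called under 0.05. Lipofectamine lowered Cdc25b, Bub1, Zwilch, Ndc80, Spc25, Cenpa, Cenpf, Cenph, Birc5, Kif20a, Kif23, Kif2c, Tpx2, Prc1, Smc2, Smc4 and Racgap1. Heat shock lowered Ccna2, Wee1, Plk1, Plk4, Zwilch, Nuf2, Cenph, Incenp, Kif11, Kif20a, Kif23, Kif2c, Smc4, Ncapd2, Rad21, Cdc20, Racgap1 and Anln. The 3 comparisons share the control arrays.

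**Figure D2:**
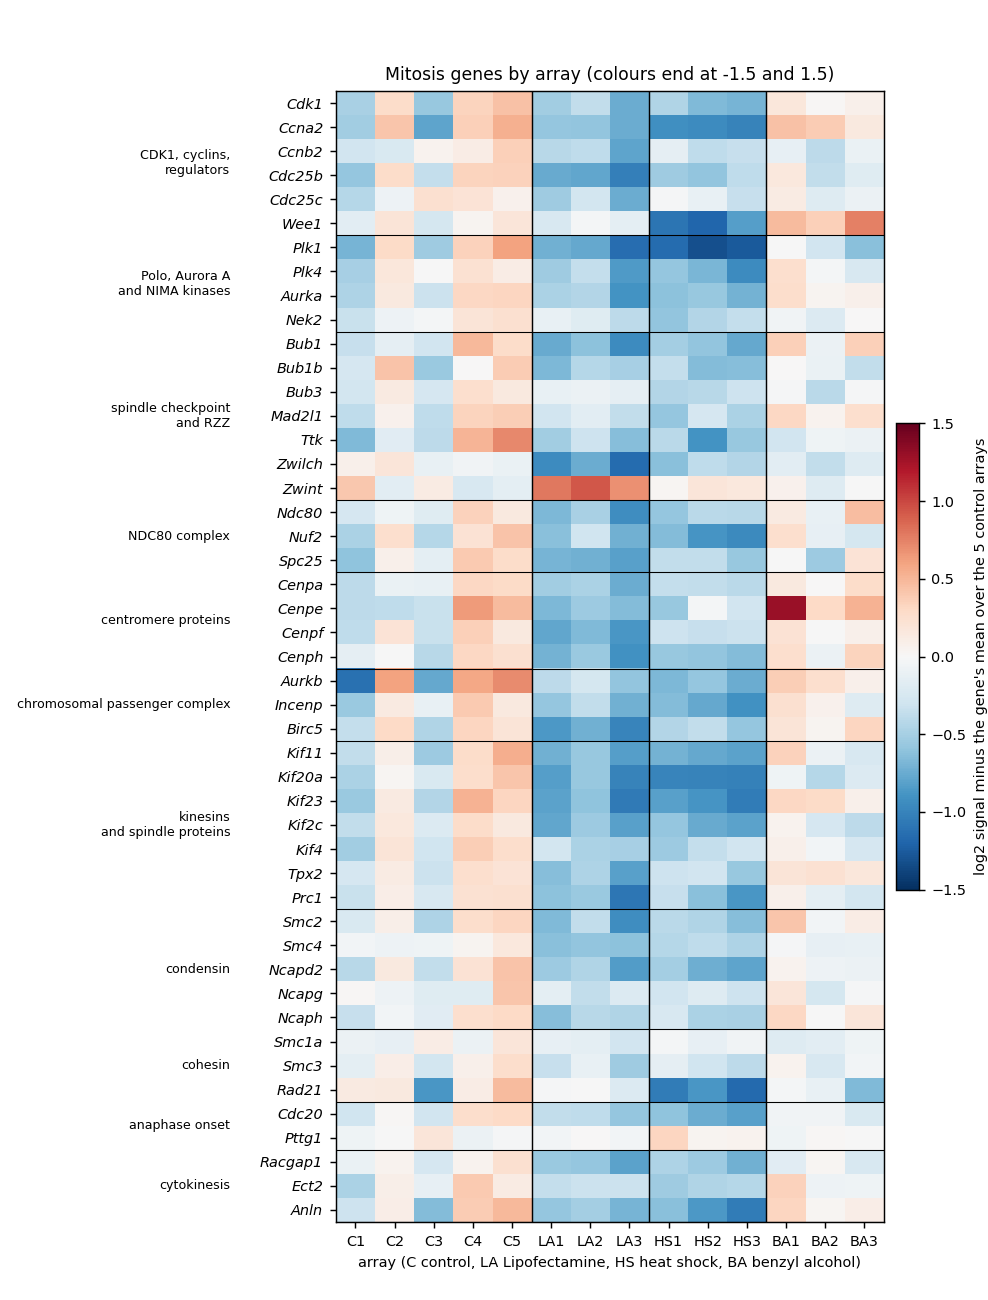
Rows are the 47 genes ordered by role, columns the 14 arrays by group, and the colour is the log2 signal minus the gene's mean over the 5 control arrays. The Lipofectamine and heat shock columns are blue in most rows and the columns of control arrays 1 and 3 are a paler blue, with Zwint as the row that is red under Lipofectamine.

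**Figure D3:**
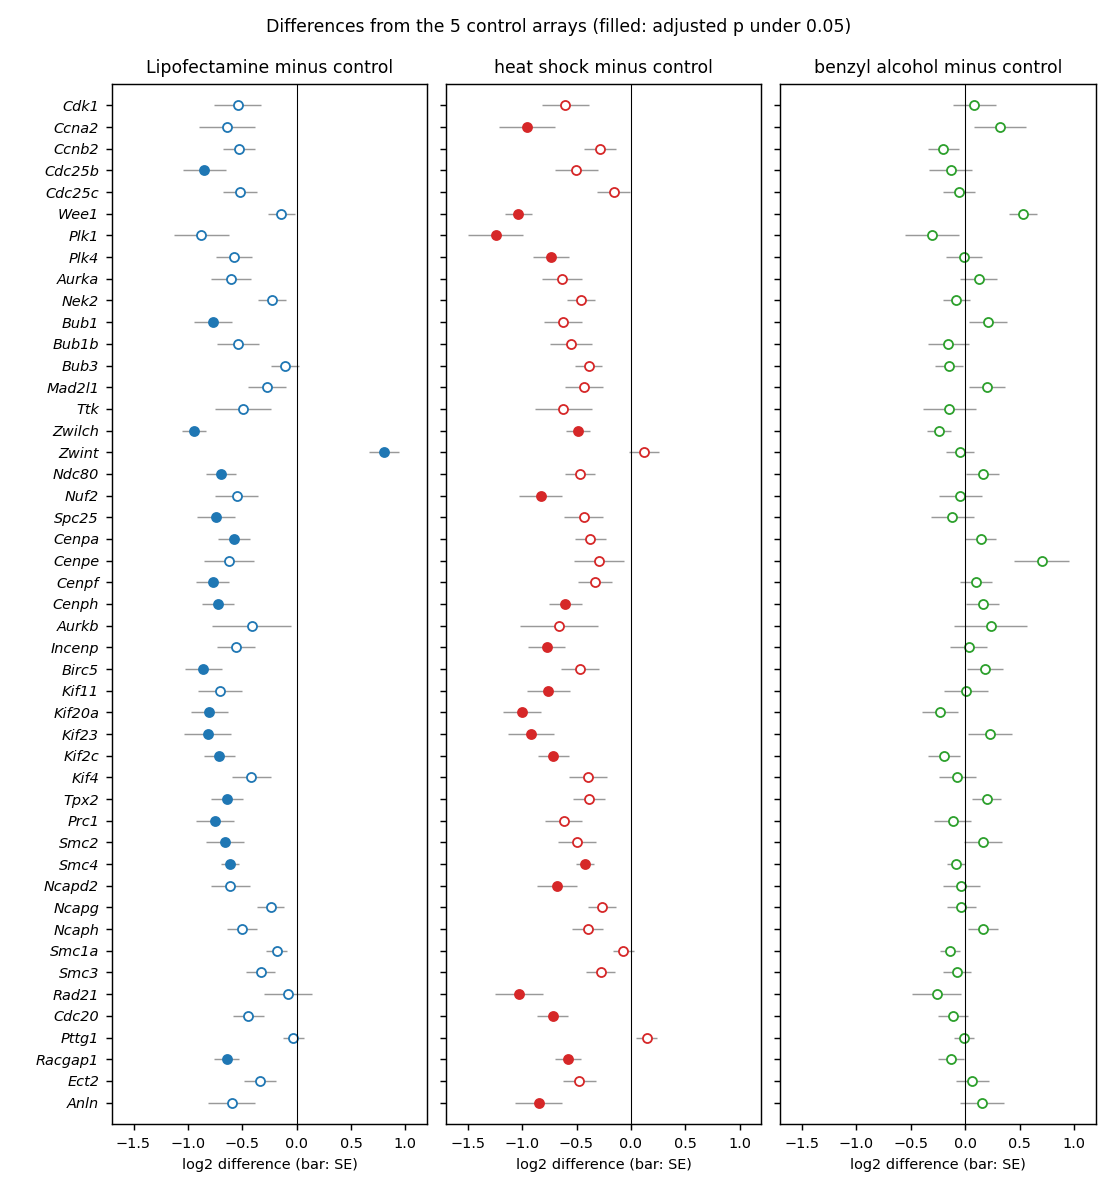
Points are the log2 differences of Lipofectamine, heat shock and benzyl alcohol arrays from the 5 control arrays for each of the 47 genes, with the SE as a bar, and filled points have an adjusted p under 0.05. Lipofectamine has 18 filled points, of which Zwint alone is above 0, heat shock 18 and benzyl alcohol none.

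The size of these differences depended on which control arrays were used. Calls against a part of the controls are description only, since the division came from earlier results of the same arrays. Against control arrays 1 and 3 alone, the median with Lipofectamine was -0.25, Zwilch and Smc4 were called lower and Zwint and Aurkb higher, beside 3.07% of all probesets lower and 1.55% higher. Against control arrays 2, 4 and 5 alone the median was -0.84, 39 genes were called lower and Zwint higher, beside 10.7% and 8.1% of all probesets. With heat shock the median was -0.19 against control arrays 1 and 3, with Wee1, Plk1 and Kif20a called lower and 3.03% of all probesets lower. It was -0.74 against arrays 2, 4 and 5, with 40 genes called lower and Zwint higher, beside 14.5% and 7.31% of all probesets. The sign of the median was negative in each of these 4 comparisons. With benzyl alcohol it was not: 0.36 against arrays 1 and 3, with 13 genes called higher and 5.17% of all probesets, and -0.18 against arrays 2, 4 and 5, with Plk1 called lower and 1.81% of all probesets. The 13 genes were Cdk1, Ccna2, Wee1, Aurka, Bub1, Mad2l1, Cenpe, Cenpf, Aurkb, Birc5, Kif23, Tpx2 and Anln.

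**Figure D4:**
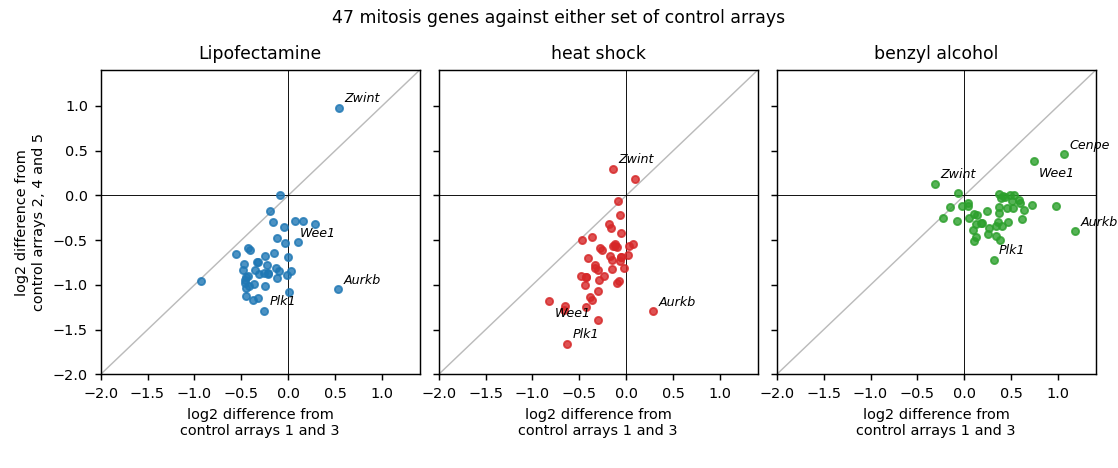
Each point is 1 of the 47 genes, placed by its log2 difference from control arrays 1 and 3 (horizontal) and from control arrays 2, 4 and 5 (vertical), for each treatment. Points below the grey line of equality had a more negative difference from arrays 2, 4 and 5, as Aurkb has with 0.53 and -1.05 for Lipofectamine, while Zwint lies above the line in all 3 panels.

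Leaving out 1 array at a time showed which calls rested on few arrays. With Lipofectamine the calls of Zwilch, Smc4, Zwint and Racgap1 held without any 1 of the 11 arrays of that fit. Of these, only that of Zwilch also held with a block for the replicate number. The calls of Birc5, Bub1, Cenpf, Cenph, Kif2c and Ndc80 were lost without Lipofectamine array 1 or 3, with adjusted p of 0.067 to 0.113, and that of Kif20a also without control array 4, at 0.0505 to 0.101. The calls of Cdc25b, Cenpa, Kif23, Prc1, Smc2, Spc25 and Tpx2 were lost without Lipofectamine array 1 or 3 or any of control arrays 2, 4 and 5, at 0.051 to 0.199. Of these 7, the calls of Cdc25b, Cenpa, Kif23 and Spc25 were lost without Lipofectamine array 2 as well, those of Cenpa, Kif23 and Smc2 without any 1 of the heat shock arrays, which enter through the shared spread, and that of Spc25 without heat shock array 2. With heat shock the calls of Wee1 and Kif20a held throughout. Those of Cdc20, Kif2c and Racgap1 were lost without heat shock array 2 or 3, at 0.0698 to 0.0932, and those of Plk1, Rad21 and Smc4 without any 1 of the heat shock arrays, at 0.0546 to 0.0976. The other 10 were lost without any 1 of the heat shock arrays and also without control array 4 (Zwilch), control array 5 (Incenp), either of them (Kif23, Plk4, Cenph) or any of control arrays 2, 4 and 5 (Nuf2, Anln, Ccna2, Kif11, Ncapd2), at 0.0501 to 0.171. Of these 10, Cenph, Anln, Ccna2, Kif11 and Ncapd2 were lost without Lipofectamine array 1, Ccna2, Kif11 and Ncapd2 without array 2, and Ccna2 and Kif11 without array 3. The number of genes called rose without control array 1, to 31 with Lipofectamine and 33 with heat shock, and without control array 3, to 29 and 30. The share of all probesets called was not counted with 1 array left out. Without both of these arrays it rose as well. Calls of lower probesets went from 3.1% to 10.7% with Lipofectamine and from 4.91% to 14.5% with heat shock. Without control array 2, 4 or 5 it was 11, 10 or 11 with Lipofectamine and 13, 9 or 9 with heat shock. Dropping Lipofectamine array 1 left 4 Lipofectamine calls, array 2 14 and array 3 4. Dropping heat shock array 1 left 5 heat shock calls, and array 2 or 3 left 2. Dropping an array of the other treatment left 14 to 15 Lipofectamine calls and 13 to 17 heat shock calls.

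Of CDK1, its cyclins and its regulators, 6 were measured. Lipofectamine lowered Cdc25b, and heat shock lowered Ccna2 and Wee1. On the log2 scale, Wee1, the kinase that holds CDK1 inactive, read 9.02, 9.38, 8.92, 9.23 and 9.36 in control arrays 1 to 5, 8.94, 9.15 and 9.03 after Lipofectamine, 8.09, 7.99 and 8.35 after heat shock and 9.65, 9.54 and 9.93 after benzyl alcohol. The heat shock arrays were the lowest by a wide margin and the benzyl alcohol arrays the highest, without overlap with the control arrays on either side. Heat shock lowered Wee1 by a log2 difference of -1.04 (SE 0.13, adjusted p = 0.000658), and against control arrays 1 and 3 alone the difference was -0.82 (adjusted p = 0.00285). The second Wee1 probeset fell as well, at -1.09 (adjusted p = 0.007). With Lipofectamine Wee1 differed by -0.14 (SE 0.13, adjusted p = 0.649), within the spread of the controls, and with benzyl alcohol by 0.53 (SE 0.13, adjusted p = 0.0553). Ccna2, cyclin A, which pairs with CDK1 and CDK2, read 10.43, 11.36, 10.16, 11.30 and 11.48 in control arrays 1 to 5, 10.36, 10.35 and 10.20 after Lipofectamine, 10.03, 10.00 and 9.94 after heat shock and 11.38, 11.32 and 11.09 after benzyl alcohol. All 3 heat shock arrays lay below every control array, and control arrays 1 and 3 were the lowest of the controls. The difference with heat shock was -0.95 (SE 0.25, adjusted p = 0.0428), and -0.30 (adjusted p = 0.205) against control arrays 1 and 3. The other Ccna2 probeset gave -0.58 (adjusted p = 0.111). Cdc25b, a phosphatase that activates CDK1, read 8.42, 9.28, 8.64, 9.34 and 9.34 in control arrays 1 to 5, 8.25, 8.23 and 7.98 after Lipofectamine, 8.47, 8.42 and 8.63 after heat shock and 9.17, 8.63 and 8.82 after benzyl alcohol. Its Lipofectamine arrays lay below all controls, with a difference of -0.85 (SE 0.20, adjusted p = 0.0265), which was -0.38 against control arrays 1 and 3. Cdk1 itself read 10.96, 11.72, 10.88, 11.78 and 11.88 in control arrays 1 to 5, 10.93, 11.08 and 10.70 after Lipofectamine, 10.99, 10.78 and 10.75 after heat shock and 11.61, 11.46 and 11.52 after benzyl alcohol. Its Lipofectamine and heat shock values overlapped those of control arrays 1 and 3, and the differences from all controls were -0.54 (SE 0.22, adjusted p = 0.185) and -0.60 (SE 0.22, adjusted p = 0.114). The partner cyclin Ccnb2 differed by -0.53 with Lipofectamine and -0.28 with heat shock, and the phosphatase Cdc25c by -0.52 and -0.16, and neither passed the test.

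The Polo and Aurora A kinases drive entry into mitosis and the maturation and copying of centrosomes, and NEK2 parts the centrosomes. Heat shock lowered Plk1 and Plk4, and Lipofectamine gave no call in these 4 genes. Plk1 read 9.77, 10.75, 9.93, 10.80 and 11.07 in control arrays 1 to 5, 9.74, 9.70 and 9.32 after Lipofectamine, 9.31, 9.14 and 9.2001 after heat shock and 10.46, 10.17 and 9.84 after benzyl alcohol. Heat shock arrays were all below every control array, and control arrays 1 and 3 were well below the other 3. The difference with heat shock, -1.25 (SE 0.25, adjusted p = 0.0143), was the most negative of the 47 genes. It was -0.63 (adjusted p = 0.0236) against control arrays 1 and 3 and -1.66 (adjusted p = 8.38e-08) against arrays 2, 4 and 5. With Lipofectamine Plk1 differed by -0.88 (SE 0.25, adjusted p = 0.0651), and all 3 arrays lay below the lowest control although it did not pass the test. Plk4, which starts the copying of centrioles, read 8.66, 9.33, 9.16, 9.39 and 9.28 in control arrays 1 to 5, 8.64, 8.80 and 8.32 after Lipofectamine, 8.59, 8.48 and 8.23 after heat shock and 9.41, 9.14 and 8.92 after benzyl alcohol. Its heat shock arrays were all below the controls, with a difference of -0.73 (SE 0.16, adjusted p = 0.0225). All 3 Plk4 probesets were called lower with heat shock, the other 2 at -0.67 and -1.11. With Lipofectamine Plk4 differed by -0.58. Aurka, which builds the spindle poles, differed by -0.60 with Lipofectamine and -0.63 with heat shock, and Nek2 by -0.23 and -0.46, none of them called.

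Among the spindle checkpoint genes and those of the RZZ complex, which recruits the checkpoint to unattached kinetochores, Lipofectamine moved Zwilch and Zwint in opposite directions. Zwilch, a subunit of RZZ, read 8.07, 8.18, 7.89, 7.95 and 7.90 in control arrays 1 to 5, 7.06, 7.25 and 6.85 after Lipofectamine, 7.37, 7.61 and 7.56 after heat shock and 7.84, 7.63 and 7.81 after benzyl alcohol. The Lipofectamine arrays were the lowest of all 14, the heat shock arrays next, and control arrays 1 and 3 lay among the other controls. Zwilch had the smallest p of the 47 genes with Lipofectamine, at -0.95 (SE 0.11, adjusted p = 0.000638). It was -0.93 (adjusted p = 0.0013) against control arrays 1 and 3 and -0.96 (adjusted p = 2.48e-05) against arrays 2, 4 and 5, so that this fall hardly depended on the control arrays used. With heat shock the difference was -0.48 (SE 0.11, adjusted p = 0.0252), and with benzyl alcohol -0.24 (SE 0.11, adjusted p = 0.347). Zwint, which ties RZZ to the outer kinetochore, read 11.55, 10.99, 11.27, 10.91 and 11.004 in control arrays 1 to 5, 11.93, 12.08 and 11.83 after Lipofectamine, 11.18, 11.33 and 11.30 after heat shock and 11.20, 10.95 and 11.14 after benzyl alcohol. All 3 Lipofectamine arrays lay above every other array, and control arrays 1 and 3 were above the other controls. Zwint rose with Lipofectamine by 0.80 (SE 0.14, adjusted p = 0.00531), and by 0.54 (adjusted p = 0.0276) against control arrays 1 and 3. Of 6 Zwint probesets 4 were called higher, between 0.80 and 1.28, and the other 2, dimmer ones gave 0.62 (adjusted p = 0.163) and 0.046 (adjusted p = 0.899). With heat shock Zwint differed by 0.12 (SE 0.14, adjusted p = 0.616).

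Bub1, a checkpoint kinase at the kinetochore, read 9.26, 9.47, 9.32, 10.09 and 9.88 in control arrays 1 to 5, 8.84, 8.99 and 8.66 after Lipofectamine, 9.09, 9.01 and 8.84 after heat shock and 9.97, 9.52 and 9.96 after benzyl alcohol. Lipofectamine and heat shock arrays were all below the controls. Lipofectamine lowered Bub1 by -0.77 (SE 0.17, adjusted p = 0.0235), and heat shock gave -0.62 (SE 0.17, adjusted p = 0.0517). A second, dim Bub1 probeset gave -0.52 (adjusted p = 0.086) with Lipofectamine. Ttk, the kinase MPS1 that starts checkpoint signalling, read 7.39, 7.87, 7.65, 8.55 and 8.76 in control arrays 1 to 5, 7.52, 7.74 and 7.40 after Lipofectamine, 7.64, 7.15 and 7.48 after heat shock and 7.76, 7.98 and 7.95 after benzyl alcohol. The controls spanned more than the treatments did, from array 1 to array 5, and the differences of -0.49 (SE 0.26, adjusted p = 0.345) with Lipofectamine and -0.62 (SE 0.26, adjusted p = 0.174) with heat shock did not pass the test. The other checkpoint genes were not called on the probeset used. Bub1b gave -0.54 with Lipofectamine and -0.55 with heat shock, Mad2l1 -0.27 and -0.43, and Bub3 -0.11 and -0.39. One dimmer probeset of Bub3 was called lower with Lipofectamine, at -0.90 (adjusted p = 0.0206), and its other probesets were not.

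**Figure D5:**
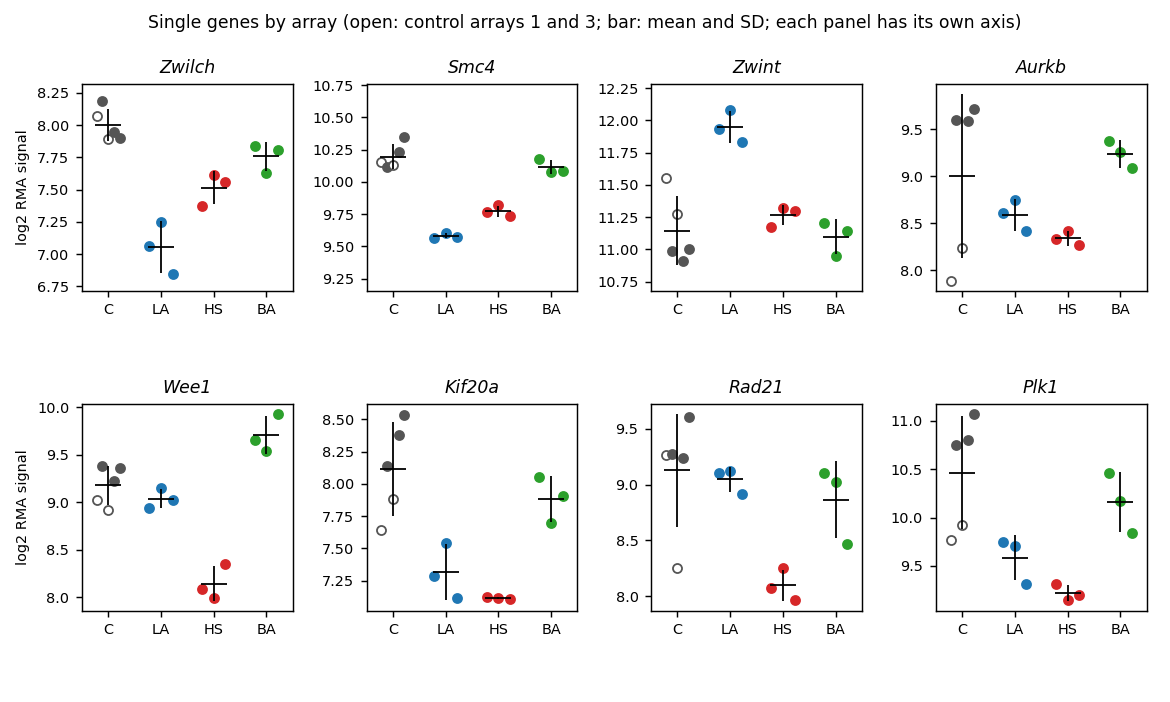
Log2 RMA signal of 8 genes in each array, by group (C control, LA Lipofectamine, HS heat shock, BA benzyl alcohol), with open points for control arrays 1 and 3 and bars for the mean and SD. Zwilch, Smc4 and Zwint have Lipofectamine points clear of all controls, Wee1 and Kif20a have heat shock points clear of all controls, and in Aurkb and Plk1 control arrays 1 and 3 lie far below the other controls.

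The NDC80 complex is the part of the kinetochore that grips microtubules. Lipofectamine lowered 2 of its 3 measured genes, Ndc80 and Spc25, and heat shock lowered the other, Nuf2. Ndc80 read 7.41, 7.59, 7.48, 8.00 and 7.80 in control arrays 1 to 5, 6.99, 7.17 and 6.73 after Lipofectamine, 7.07, 7.25 and 7.24 after heat shock and 7.79, 7.54 and 8.12 after benzyl alcohol. Its Lipofectamine and heat shock arrays all lay below the controls. The difference was -0.69 (SE 0.14, adjusted p = 0.0138) with Lipofectamine and -0.47 (SE 0.14, adjusted p = 0.0644) with heat shock. Spc25 read 8.96, 9.64, 9.42, 9.96 and 9.85 in control arrays 1 to 5, 8.86, 8.85 and 8.75 after Lipofectamine, 9.19, 9.197 and 8.9996 after heat shock and 9.55, 9.02 and 9.77 after benzyl alcohol. Only the Lipofectamine arrays lay wholly below the controls, at -0.74 (SE 0.18, adjusted p = 0.0311), and heat shock gave -0.43. A second Spc25 probeset, dim in every group, gave 0.085 with Lipofectamine. Nuf2 read 7.69, 8.41, 7.73, 8.38 and 8.58 in control arrays 1 to 5, 7.53, 7.85 and 7.44 after Lipofectamine, 7.504, 7.27 and 7.196 after heat shock and 8.41, 8.03 and 7.89 after benzyl alcohol. Heat shock arrays were all below the controls, with control arrays 1 and 3 just above them, and the difference was -0.83 (SE 0.20, adjusted p = 0.0277). With Lipofectamine it was -0.55. Against control arrays 1 and 3 alone the called differences were -0.48 for Ndc80, -0.37 for Spc25 and -0.38 for Nuf2, with none called.

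Centromere proteins mark and build the site of the kinetochore. Lipofectamine lowered Cenpa, Cenpf and Cenph, and heat shock lowered Cenph. Cenph, of the inner kinetochore, read 7.01, 7.14, 6.73, 7.45 and 7.39 in control arrays 1 to 5, 6.44, 6.59 and 6.23 after Lipofectamine, 6.58, 6.56 and 6.50 after heat shock and 7.39, 7.05 and 7.48 after benzyl alcohol. Lipofectamine and heat shock arrays all lay below the controls. The differences were -0.73 (SE 0.15, adjusted p = 0.0145) and -0.60 (SE 0.15, adjusted p = 0.0312). Cenpf, a large protein of the outer kinetochore, read 9.01, 9.60, 9.06, 9.75 and 9.54 in control arrays 1 to 5, 8.61, 8.73 and 8.52 after Lipofectamine, 9.08, 9.05 and 9.06 after heat shock and 9.61, 9.39 and 9.47 after benzyl alcohol. The Lipofectamine arrays were below all others, at -0.77 (SE 0.16, adjusted p = 0.0139), and heat shock gave -0.33. The other Cenpf probeset gave -0.24 (adjusted p = 0.345). Cenpa, the histone variant of centromeres, read 9.58, 9.87, 9.87, 10.28 and 10.26 in control arrays 1 to 5, 9.45, 9.50 and 9.23 after Lipofectamine, 9.62, 9.61 and 9.57 after heat shock and 10.12, 9.98 and 10.25 after benzyl alcohol. Lipofectamine gave -0.58 (SE 0.15, adjusted p = 0.0382) and heat shock -0.37. The kinesin Cenpe was not called, with -0.62 and -0.30. With benzyl alcohol Cenpe had the largest rise of the 47 genes, 0.70 (SE 0.25, adjusted p = 0.213), with array 1 at 6.38 and arrays 2 and 3 at 5.38 and 5.60, beside 4.69, 4.70, 4.74, 5.72 and 5.55 in the controls. Against control arrays 1 and 3 the called differences with Lipofectamine were -0.45 for Cenph, -0.42 for Cenpf and -0.33 for Cenpa, and none was called.

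The chromosomal passenger complex corrects wrong attachments and later acts in cytokinesis. Its kinase gene, Aurkb, set control arrays 1 and 3 apart more than any other of the 47 genes. Aurkb read 7.88, 9.60, 8.23, 9.59 and 9.71 in control arrays 1 to 5, 8.61, 8.74 and 8.41 after Lipofectamine, 8.33, 8.42 and 8.26 after heat shock and 9.37, 9.26 and 9.08 after benzyl alcohol. Control arrays 1 and 3 were below every treated array, and arrays 2, 4 and 5 above every one. Arrays 1 and 3 minus arrays 2, 4 and 5 gave -1.58. The difference of Lipofectamine from all controls, -0.42 (SE 0.36, adjusted p = 0.638), was 0.53 (adjusted p = 0.041) against arrays 1 and 3 and -1.05 (adjusted p = 2.66e-06) against arrays 2, 4 and 5. With heat shock these were -0.66 (SE 0.36, adjusted p = 0.289), 0.28 (adjusted p = 0.282) and -1.30 (adjusted p = 2.5e-07). On this probeset the sign of the Aurkb difference therefore turned with the control arrays used. A second, dimmer Aurkb probeset had means of 6.54 in control arrays 1 and 3 and 7.82 in arrays 2, 4 and 5. Its Lipofectamine mean of 6.69 lay between these. Its heat shock mean of 6.25 lay below both, so that the sign did not turn with heat shock. The differences from all controls were -0.62 (adjusted p = 0.29) and -1.06 (adjusted p = 0.0526). Birc5, survivin, read 10.48, 11.14, 10.38, 11.15 and 11.03 in control arrays 1 to 5, 9.97, 10.12 and 9.85 after Lipofectamine, 10.39, 10.46 and 10.26 after heat shock and 11.03, 10.87 and 11.15 after benzyl alcohol. Only Lipofectamine lay wholly below the controls, at -0.86 (SE 0.17, adjusted p = 0.0141), beside -0.47 with heat shock. Incenp, the scaffold of the complex, read 9.27, 9.96, 9.71, 10.22 and 9.97 in control arrays 1 to 5, 9.24, 9.46 and 9.10 after Lipofectamine, 9.17, 9.06 and 8.91 after heat shock and 10.06, 9.89 and 9.63 after benzyl alcohol. Heat shock lay wholly below the controls, at -0.78 (SE 0.17, adjusted p = 0.0222), beside -0.56 with Lipofectamine. Of the other 2 Incenp probesets 1 was called lower with heat shock, at -0.77, and the other gave -0.43. Relative to arrays 1 and 3, Birc5 with Lipofectamine gave -0.45 and Incenp with heat shock -0.44, neither called.

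Of the 7 kinesins and spindle proteins, all 7 had negative differences with both treatments. Lipofectamine lowered Kif20a, Kif23, Kif2c, Tpx2 and Prc1, and heat shock lowered Kif11, Kif20a, Kif23 and Kif2c. Kif20a, a motor of the central spindle, read 7.64, 8.14, 7.89, 8.38 and 8.54 in control arrays 1 to 5, 7.29, 7.54 and 7.11 after Lipofectamine, 7.12, 7.11 and 7.10 after heat shock and 8.05, 7.69 and 7.91 after benzyl alcohol. The 3 heat shock arrays were nearly equal and the lowest together with Lipofectamine array 3, and all 6 arrays of both treatments lay below the controls. Heat shock gave -1.002 (SE 0.17, adjusted p = 0.00647), and -0.65 (adjusted p = 0.0179) against control arrays 1 and 3. Lipofectamine gave -0.80 (SE 0.17, adjusted p = 0.0201), and -0.45 (adjusted p = 0.0866) against arrays 1 and 3. Kif23, a motor that bundles the central spindle with RACGAP1, read 9.17, 9.86, 9.28, 10.24 and 10.04 in control arrays 1 to 5, 8.92, 9.12 and 8.66 after Lipofectamine, 8.90, 8.83 and 8.67 after heat shock and 10.03, 10.00 and 9.79 after benzyl alcohol. Both treatments lay below all controls. The differences were -0.82 (SE 0.21, adjusted p = 0.0451) and -0.92 (SE 0.21, adjusted p = 0.0267). With Lipofectamine its other 2 probesets, both dim, gave -0.64 (adjusted p = 0.103) and -0.047 (adjusted p = 0.915), not called. Of these, 1 was called lower with heat shock, at -1.34, and the other gave 0.24, of the opposite sign. Kif2c, which takes microtubules apart at centromeres, read 8.51, 9.03, 8.68, 9.16 and 9.02 in control arrays 1 to 5, 8.10, 8.34 and 8.07 after Lipofectamine, 8.30, 8.13 and 8.07 after heat shock and 8.93, 8.63 and 8.49 after benzyl alcohol. All 6 treated arrays lay below the controls, at -0.71 (SE 0.14, adjusted p = 0.0135) and -0.71 (SE 0.14, adjusted p = 0.0133). Its 3 other probesets gave -0.17, -0.52 and -0.15 with Lipofectamine, none called, and -0.57, -1.05 and 0.014 with heat shock, of which the second was called.

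Kif11, the motor that pushes spindle poles apart, read 7.83, 8.28, 7.65, 8.48 and 8.75 in control arrays 1 to 5, 7.48, 7.63 and 7.37 after Lipofectamine, 7.49, 7.43 and 7.39 after heat shock and 8.54, 8.11 and 7.96 after benzyl alcohol. Heat shock lay below all controls, at -0.76 (SE 0.20, adjusted p = 0.04), and so did Lipofectamine, at -0.71 (SE 0.20, adjusted p = 0.0601), which did not pass the test. Its other probesets gave -1.29, called, and -0.66, not called, with heat shock. Tpx2, which activates Aurora A on the spindle, read 8.89, 9.26, 8.82, 9.40 and 9.34 in control arrays 1 to 5, 8.50, 8.68 and 8.33 after Lipofectamine, 8.83, 8.86 and 8.57 after heat shock and 9.34, 9.37 and 9.31 after benzyl alcohol. Lipofectamine arrays all lay below the controls, at -0.64 (SE 0.15, adjusted p = 0.0254), and heat shock gave -0.39. The other Tpx2 probeset was called lower too, at -0.89. Prc1, which cross-links microtubules of the central spindle, read 9.86, 10.30, 9.95, 10.43 and 10.44 in control arrays 1 to 5, 9.58, 9.64 and 9.11 after Lipofectamine, 9.85, 9.57 and 9.32 after heat shock and 10.27, 10.05 and 9.92 after benzyl alcohol. Both treatments lay below the controls, at -0.75 (SE 0.17, adjusted p = 0.0253) with Lipofectamine and -0.62 (SE 0.17, adjusted p = 0.0506) with heat shock. The second Prc1 probeset was called lower with both, at -0.70 and -0.74. The chromosome motor Kif4 gave -0.42 and -0.39 and was not called. Against control arrays 1 and 3 alone, Kif20a with heat shock was the only one of these 7 genes called with either treatment.

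Condensin compacts chromosomes before they part. Lipofectamine lowered its ATPases Smc2 and Smc4, and heat shock lowered Smc4 and the subunit Ncapd2. Smc4 read 10.15, 10.12, 10.13, 10.23 and 10.35 in control arrays 1 to 5, 9.57, 9.61 and 9.58 after Lipofectamine, 9.77, 9.82 and 9.74 after heat shock and 10.17, 10.08 and 10.09 after benzyl alcohol. The spread within each group was small, control arrays 1 and 3 lay among the other controls, and both treatments lay wholly below them. Lipofectamine gave -0.61 (SE 0.085, adjusted p = 0.00206) and heat shock -0.42 (SE 0.085, adjusted p = 0.014). Relative to control arrays 1 and 3 these were -0.56 (adjusted p = 0.0107) and -0.37 (adjusted p = 0.0916). The other Smc4 probesets gave -0.43 and -0.17 with Lipofectamine, not called, and -0.18 and -0.71 with heat shock, of which the last was called. Smc2 read 9.28, 9.60, 9.05, 9.77 and 9.83 in control arrays 1 to 5, 8.84, 9.13 and 8.58 after Lipofectamine, 9.10, 9.06 and 8.87 after heat shock and 9.92, 9.46 and 9.62 after benzyl alcohol. Lipofectamine overlapped control array 3, and the difference was -0.66 (SE 0.17, adjusted p = 0.0472), beside -0.50 with heat shock. Ncapd2 read 9.49, 10.06, 9.55, 10.12 and 10.33 in control arrays 1 to 5, 9.36, 9.46 and 9.07 after Lipofectamine, 9.40, 9.18 and 9.12 after heat shock and 9.97, 9.84 and 9.83 after benzyl alcohol. Heat shock lay below all controls, at -0.68 (SE 0.18, adjusted p = 0.0425), and Lipofectamine too, at -0.61 (SE 0.18, adjusted p = 0.0714). Ncapg gave -0.24 and -0.26 and Ncaph -0.50 and -0.40, not called on the brightest probeset. A dimmer probeset of each was called lower with Lipofectamine, at -0.84 for Ncapg and -0.63 for Ncaph, and that of Ncaph also with heat shock, at -0.60.

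Cohesin holds sister chromatids together from their replication on. Of its 3 measured genes heat shock lowered Rad21, the subunit cut at anaphase, and Lipofectamine gave no call. Rad21 read 9.26, 9.28, 8.26, 9.23 and 9.60 in control arrays 1 to 5, 9.10, 9.12 and 8.92 after Lipofectamine, 8.07, 8.25 and 7.97 after heat shock and 9.10, 9.02 and 8.47 after benzyl alcohol. The 3 heat shock arrays and control array 3 lay together at the lower end, with benzyl alcohol array 3 next. Heat shock gave -1.03 (SE 0.22, adjusted p = 0.0195), -0.66 (adjusted p = 0.0922) against control arrays 1 and 3 and -1.28 (adjusted p = 9.35e-07) against arrays 2, 4 and 5. With Lipofectamine the difference was -0.080 (SE 0.22, adjusted p = 0.918). The fall was not seen to the same size in the other Rad21 probesets, which gave -0.46 (adjusted p = 0.0555) and -0.039 (adjusted p = 0.902) with heat shock. The ring ATPases gave -0.18 and -0.070 for Smc1a and -0.33 and -0.28 for Smc3, not called.

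At anaphase onset CDC20 switches on the anaphase-promoting complex, which destroys securin, the product of Pttg1. Heat shock lowered Cdc20, and Pttg1 did not pass the test. Cdc20 read 10.28, 10.60, 10.30, 10.85 and 10.89 in control arrays 1 to 5, 10.21, 10.21 and 10.00 after Lipofectamine, 9.98, 9.84 and 9.77 after heat shock and 10.54, 10.53 and 10.36 after benzyl alcohol. Both treatments lay below the controls, at -0.72 (SE 0.14, adjusted p = 0.014) with heat shock and -0.44 (SE 0.14, adjusted p = 0.0986) with Lipofectamine. On another Cdc20 probeset the call was the other way round, -0.55 (adjusted p = 0.014) with Lipofectamine and -0.37 (adjusted p = 0.0667) with heat shock, and the third gave -0.22 and -0.15, not called. Pttg1 was one of the 2 genes with a positive difference with heat shock, 0.14 (SE 0.096, adjusted p = 0.391), beside Zwint, and differed by -0.029 with Lipofectamine. The cytokinesis genes closed the list. Racgap1, the partner of KIF23 in the central spindle, read 10.26, 10.41, 10.10, 10.41 and 10.60 in control arrays 1 to 5, 9.80, 9.78 and 9.56 after Lipofectamine, 9.89, 9.81 and 9.64 after heat shock and 10.18, 10.38 and 10.11 after benzyl alcohol. All 6 arrays of both treatments lay below the controls. Lipofectamine gave -0.64 (SE 0.12, adjusted p = 0.00873) and heat shock -0.58 (SE 0.12, adjusted p = 0.0143), and -0.47 (adjusted p = 0.0558) and -0.40 (adjusted p = 0.104) against control arrays 1 and 3. The second Racgap1 probeset gave -0.75 (adjusted p = 0.0592) and -0.58 (adjusted p = 0.116). Anln, anillin of the contractile ring, read 8.86, 9.27, 8.53, 9.55 and 9.66 in control arrays 1 to 5, 8.59, 8.66 and 8.47 after Lipofectamine, 8.54, 8.31 and 8.12 after heat shock and 9.49, 9.21 and 9.28 after benzyl alcohol. Heat shock array 1 was just above control array 3, and the difference with heat shock was -0.85 (SE 0.21, adjusted p = 0.0342), beside -0.60 with Lipofectamine. Ect2, which activates RhoA at the cleavage site, gave -0.34 and -0.47 and was not called.

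Lipofectamine and heat shock were also compared directly, without the controls in the difference. The median difference of Lipofectamine from heat shock over the 47 genes was 0.016, beside -0.068 over all genes, and 43 genes did not pass the test. The 3 called higher with Lipofectamine were Rad21 at 0.95 (SE 0.25, adjusted p = 0.0394), Wee1 at 0.89 (SE 0.14, adjusted p = 0.0032) and Zwint at 0.68 (SE 0.15, adjusted p = 0.0187), beside 4.42% of all probesets. Zwilch was called lower, at -0.46 (SE 0.12, adjusted p = 0.0469), beside 1.3%. The next lowest were Cenpf at -0.45 (SE 0.17, adjusted p = 0.163) and Birc5 at -0.39 (SE 0.19, adjusted p = 0.277). Without any 1 of the heat shock arrays, or without Lipofectamine array 1, 1 gene was called, and without control array 4 or Lipofectamine array 2 or 3 there were 2.

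The benzyl alcohol arrays lay near the controls in these genes and above both other treatments. Against the control, the largest rises were those of Cenpe at 0.70 (SE 0.25, adjusted p = 0.213), Wee1 at 0.53 (SE 0.13, adjusted p = 0.0553) and Ccna2 at 0.32 (SE 0.24, adjusted p = 0.642). The largest falls were those of Plk1 at -0.30 (SE 0.25, adjusted p = 0.679), Rad21 at -0.26 (SE 0.23, adjusted p = 0.692) and Zwilch at -0.24 (SE 0.11, adjusted p = 0.347). None of these passed the test, and 1 gene was called without control array 2 or 5. Against heat shock 20 genes were called higher and none lower, with a median of 0.59 beside -0.034 over all genes, and 5.44% of all probesets higher and 1.78% lower. The 3 largest were Wee1 at 1.57 (SE 0.14, adjusted p = 4.85e-05), Ccna2 at 1.28 (SE 0.27, adjusted p = 0.0143) and Kif23 at 1.14 (SE 0.23, adjusted p = 0.0107). The lowest were Zwint at -0.17, Pttg1 at -0.16 and Smc1a at -0.066, not called. Against Lipofectamine 20 genes were called higher and Zwint lower, with a median of 0.58 beside 0.040 over all genes, and 6.71% of all probesets higher and 5.22% lower. The largest rises were Cenpe at 1.33 (SE 0.28, adjusted p = 0.0077), Birc5 at 1.04 (SE 0.19, adjusted p = 0.00304) and Kif23 at 1.04 (SE 0.23, adjusted p = 0.00827), and Zwint gave -0.85 (SE 0.15, adjusted p = 0.0025). Rad21 and Bub3 were the next lowest, at -0.18 and -0.038, not called. These comparisons share the benzyl alcohol arrays. The genes called higher against heat shock were Ccna2, Wee1, Plk4, Aurka, Bub1, Mad2l1, Ndc80, Nuf2, Cenpe, Cenph, Incenp, Birc5, Kif20a, Kif23, Tpx2, Smc4, Ncaph, Cdc20, Racgap1 and Anln. Those called higher against Lipofectamine were Ccna2, Cdc25b, Wee1, Aurka, Bub1, Zwilch, Ndc80, Cenpa, Cenpe, Cenpf, Cenph, Birc5, Kif23, Tpx2, Prc1, Smc2, Smc4, Ncaph, Racgap1 and Anln. Against heat shock the calls numbered 4, 2 or 1 when heat shock array 1, 2 or 3 was dropped, 1, 10 or 7 when benzyl alcohol array 1, 2 or 3 was, and 11 when Lipofectamine array 1 was, while against Lipofectamine it stayed between 14 and 30. The treatments differed in length and, after benzyl alcohol, possibly in recovery, which cannot be told apart from the agent.

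A further 90 genes of mitosis were measured in the same fits. Lipofectamine lowered 17 of them and raised none, with a median of -0.25. Those with the smallest p were Dlgap5 at -0.70 (adjusted p = 0.00253), Sass6 at -0.60 (adjusted p = 0.00798), Melk at -1.03 (adjusted p = 0.0182), Cep55 at -0.88 (adjusted p = 0.0195), Cenpt at -0.56 (adjusted p = 0.0222) and Nek6 at -0.77 (adjusted p = 0.0226). Dlgap5 stabilises spindle fibres, Sass6 forms the core of new centrioles and Cep55 acts in the final cut between daughter cells. Heat shock lowered 13 and raised none, with a median of -0.22: the first were Dlgap5 at -0.55 (adjusted p = 0.01), Cep55 at -0.92 (adjusted p = 0.0158), Fzr1 at -0.75 (adjusted p = 0.0177), Ccnf at -1.20 (adjusted p = 0.0203), Cenpc1 at -0.54 (adjusted p = 0.0208) and Haspin at -1.34 (adjusted p = 0.0215). Fzr1 is the second activator of the anaphase-promoting complex and Haspin the kinase that places the passenger complex on centromeres. With benzyl alcohol none was called, 14 had an unadjusted p under 0.05, beside 13.4% of all probesets, and the median was 0.039. Of all probesets, 3.1% were called lower with Lipofectamine and 4.91% with heat shock, and 1.78% and 1.05% higher. With control arrays 1 and 3 alone as the reference, Lipofectamine lowered 5 and raised 1, beside 3.07% and 1.55% of all probesets. Heat shock then lowered 3 of the 90, near the 3.03% of all probesets. With arrays 2, 4 and 5, Lipofectamine lowered 42 and raised 4, beside 10.7% and 8.1% of all probesets. Heat shock lowered 41 and raised 1 with that reference, beside 14.5% and 7.31%. Between Lipofectamine and heat shock, Pds5a at 0.87 (adjusted p = 0.0114), Cenpc1 at 0.64 (adjusted p = 0.0132) and Plk2 at 1.87 (adjusted p = 0.0258) were higher with Lipofectamine. Benzyl alcohol was above heat shock for 19 of the 90, led by Cep55 at 1.19 (adjusted p = 0.00779), Dlgap5 at 0.66 (adjusted p = 0.00779), Kif18a at 0.58 (adjusted p = 0.0105), Spdl1 at 1.10 (adjusted p = 0.011), Cdca5 at 0.72 (adjusted p = 0.0116) and Nek6 at 0.87 (adjusted p = 0.0144). It was above Lipofectamine for 23, led by Dlgap5 at 0.81 (adjusted p = 0.00114), Nek6 at 1.16 (adjusted p = 0.00149), Shcbp1 at 0.87 (adjusted p = 0.0025), Cep55 at 1.16 (adjusted p = 0.0044), Tacc3 at 0.71 (adjusted p = 0.00538) and Melk at 1.19 (adjusted p = 0.00605), and below it for Esco1 at -0.69 (adjusted p = 0.03). Of all probesets, 4.42% were called higher with Lipofectamine than with heat shock and 5.44% higher with benzyl alcohol than with heat shock. Benzyl alcohol against Lipofectamine gave 6.71% higher and 5.22% lower. Control arrays 1 and 3 lay below arrays 2, 4 and 5 without overlap for 45.6% of the 90 genes, beside 21% of all probesets, with a median difference of -0.19.

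Factors that transcribe or silence mitosis genes numbered 16 among the measured genes, of which 5 passed the test with 1 of the treatments. Lipofectamine lowered Mybl2 at -0.74 (adjusted p = 0.026), the MYB protein that works with the MuvB complex at CHR elements, and raised E2f3 at 0.41 (adjusted p = 0.0311). Heat shock lowered Rbl2 at -0.74 (adjusted p = 0.00683), the pocket protein p130 of the silencing DREAM complex, Nfyb at -0.56 (adjusted p = 0.0109), a subunit of NF-Y, and Tfdp1 at -0.57 (adjusted p = 0.0363), the partner of E2F proteins. Of all probesets, 3.1% were called lower and 1.78% higher with Lipofectamine, and 4.91% and 1.05% with heat shock. Benzyl alcohol moved none, and 2 had an unadjusted p under 0.05, beside 13.4% of all probesets. The medians over the 16 were -0.18, -0.34 and 0.0036, beside -0.024, 0.041 and 0.018 over all genes. Differences of these genes from either part of the control arrays alone are not given.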

How the data were processed

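RNA from B16-F10 cells was measured on 14 Affymetrix arrays, 5 of untreated cells and 3 each of cells after heat shock, Lipofectamine and benzyl alcohol, which the labels call biological replicates. The deposited values are log2 signals that the authors obtained by Robust Multiarray Analysis (RMA), which corrects the background, quantile normalizes the arrays and summarises the probes of each probeset. Signals were read with GCOS 1.2 per the methods. The version of RMA, and which arrays were normalized together, are not given in the sources used here. Quantile normalization gives all arrays the same distribution, so a change shared by most genes cannot be seen in such values.

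After 64 Affymetrix control probesets were left out, 22626 probesets were tested without a filter on signal. The platform table gave 1 gene symbol for 20380 of them, several for 691 and none for 1555, and probesets with several were not used for a gene. The 52 genes and all other lists were chosen with earlier results of these data known. For each gene the probeset with the highest mean was taken. Lipofectamine, heat shock and their difference were fitted with limma 3.58.1 in R 4.3.3 on the 11 arrays of these groups and the control, and benzyl alcohol on all 14. P-values were adjusted by Benjamini-Hochberg over all probesets. The fit was tested on simulated data with independent noise for each probeset and undivided controls, so this test does not cover the division of the controls seen here. Alternatives were other sets of arrays, normalizations, probeset choices, thresholds and array weights, and each array left out in turn. Each array's values were printed for all genes called against the control and the 10 that differed most between control arrays 1 and 3 and the others. Promoter sequences are those of RefSeq on GRCm38.p6. The number of arrays limits the precision, since arrays give no count of reads.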

Additional observations from a re-analysis of the deposited data

Results flagged for a closer look

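In the control group, the Rad21 probeset used read 8.26 in array 3 and between 9.23 and 9.60 in the other 4 arrays. The other Rad21 probesets did not show this. A nearly as bright one read 8.79 in array 3 and 8.68 to 9.13 in the others, and on the dim one array 3 was the highest control, at 5.15. On the probeset used, the gap to the nearest array was 0.726 of the whole range, past Dixon's limit for 5 samples. Of 48 sets of control values tested this was the only such one, and chance alone gives about 1 in 20 where the arrays are not divided. These controls were divided. The ratio uses the gap of a single end array, so control arrays 1 and 3, both low in most of these genes, can hide each other. The lack of other such sets therefore says little.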

How the results depend on the processing

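The medians over the 47 genes with Lipofectamine and with heat shock stayed below 0 under every alternative run, but the number of genes called changed. With benzyl alcohol against the control and with Lipofectamine against heat shock, where the medians were near 0, they lay on both sides of it. In the order Lipofectamine, heat shock, the 47 genes gave 18 and 18 calls against the control and the 90 other mitosis genes 17 and 13. Fits of only the 2 groups compared gave 9 and 11 for the 47 genes and 4 and 8 for the others, and 34 for benzyl alcohol against heat shock. Array weights, some of whose estimates stopped short of full convergence, gave 41 and 41, and 59 and 42 for the others, with 23 for Lipofectamine against heat shock, 33 and 38 for benzyl alcohol against heat shock and Lipofectamine, and 1 of the 47 and 3 of the others for benzyl alcohol against the control. The threshold of the methods, an unadjusted p under 0.001 both in the F-test over the groups of the fit and in the comparison, gave 10 and 9, 5 and 6 for the others, 2 for Lipofectamine against heat shock, 1 for benzyl alcohol against the control and 8 and 12 against heat shock and Lipofectamine. Without control arrays 1 and 3 there were 40 and 41, and 46 and 42 of the others, with 1 and 2 for benzyl alcohol. Without control arrays 2, 4 and 5 there were 4 and 3, and 6 and 3 of the others, with 13 and 24 for benzyl alcohol, and the medians over the 47 genes were -0.25, -0.19 and 0.36. Quantile normalization again gave 12 for benzyl alcohol against heat shock, equal array medians 11 of the other genes for Lipofectamine, and the brighter part of the probesets 1 of the 47 for benzyl alcohol. Leaving out probesets shared between transcripts, or averaging a gene's probesets, gave 1 of the other genes for benzyl alcohol. Without the shared probesets the calls of Kif2c with Lipofectamine and with heat shock were lost. Averaging a gene's probesets also ended the calls of Kif23, Kif2c and Spc25 with Lipofectamine and of Ccna2 with heat shock. The cause was not tested. A single fit of 14 arrays and a variance trend kept these counts within 1.5 times. Apart from the division of the control arrays, the share of all probesets called was not counted under these alternatives. The same holds with 1 array left out or with the replicate block. How far such a change in the counts is particular to mitosis genes was therefore not tested.

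Leaving out 1 array at a time, Lipofectamine gave 4 to 31 calls, heat shock 2 to 33, their difference 1 to 4, and benzyl alcohol 0 to 1, 1 to 28 and 14 to 30 against control, heat shock and Lipofectamine. The other mitosis genes gave 1 to 33, 1 to 33 and 0 to 1 against the control. The main fit did not pair arrays by replicate number. Deviations of same-numbered arrays correlated between -0.56 and 0.442. Arrays of different numbers were not set beside them, so whether equal numbers pair the samples was not tested. With the replicate block the 47 genes gave 1, 2 and 1 calls for Lipofectamine, heat shock and benzyl alcohol against the control and the 90 others 2 and 2 for Lipofectamine and heat shock. Zwilch kept its call with Lipofectamine, and Wee1 and Kif20a kept theirs with heat shock. The block ended the Lipofectamine calls of Smc4, Racgap1 and Zwint, at limma adjusted p of 0.0594, 0.0654 and 0.0749. Dim probesets limit what can be said of genes near the background signal.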
